A study of Mus musculus with 8 samples.

Results

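Splenic B cells of 3 Eµ-PRMT5/TCL1 mice were compared with those of 4 Eµ-PRMT5 mice by bulk RNA-seq, to describe what the TCL1 transgene adds where the PRMT5 transgene is already present. These 7 mice were chosen by genotype from the 8 of the series, the other being 1 Eµ-TCL1 mouse. All 7 carried human PRMT5 on a C57BL/6N background, and the 3 Eµ-PRMT5/TCL1 mice also carried human TCL1. The PRMT5 transgene is driven by an immunoglobulin VH promoter and the IgH µ enhancer, so both groups overexpress it in B-lineage cells. The double transgenic mice came from a cross of Eµ-PRMT5 with homozygous Eµ-TCL1 mice, which the study's methods place on C57BL/6J, so the TCL1 transgene and a J contribution to the background cannot be told apart. B cells were taken from the spleen by a pan-B isolation kit when mice met criteria for removal because of disease. No wild-type mice were analysed here, and the labels give neither age nor sex. The title of Eµ-PRMT5 mouse 2 carries the name of a founder in the study's methods, and the founder line of the other mice is not given in the labels.

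PRMT5 is the main enzyme for symmetric dimethylation of arginine, and its substrates include histones and the Sm proteins of the spliceosome. TCL1 is a small protein that binds the kinase AKT and raises its activity, and its expression in B cells gives mice a disease that resembles chronic lymphocytic leukemia (CLL). AKT acts downstream of the B-cell receptor and PI3K, and it phosphorylates FOXO transcription factors, which keeps them out of the nucleus.

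Of 24902 gene symbols, 14182 had a value in all 7 mice, and 12658 passed the expression filter and were tested. Counts on genes totalled between 3987989 and 10252426 per mouse. Levels are given as CPM, counts scaled to library size with TMM factors, and differences as the log2 fold change of Eµ-PRMT5/TCL1 over Eµ-PRMT5 with its standard error. Since nothing in the labels tells whether the mice were littermates or processed together, p-values measure the spread between these 7 samples only.

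The transgenes could not be followed directly. Human PRMT5 and TCL1 have no rows of their own in the matrix under those symbols, and whether their reads fall on the mouse genes is not given in the sources used here. Mouse Prmt5 (chromosome 14 of GRCm38, 54507187 to 54517525) measured 125, 166, 60.8 and 232 CPM in Eµ-PRMT5 mice 1 to 4 and 108, 113 and 125 CPM in Eµ-PRMT5/TCL1 mice 1 to 3. The groups overlapped (log2 fold change -0.34, standard error 0.41), and the double transgenic mice lay within the range of the others. Mouse Tcl1 had 17 counts in Eµ-PRMT5 mouse 3 and 12 in Eµ-PRMT5/TCL1 mouse 2, and 0 or no value in the other 5. All 14 B-cell markers were tested, and they summed to between 12180 and 26170 CPM in Eµ-PRMT5 and between 20400 and 30930 CPM in Eµ-PRMT5/TCL1 mice. The signal component Cd79a ranged from 406 to 1752 CPM in the first group and from 1003 to 2095 CPM in the second.

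At an adjusted p under 0.05 in edgeR's quasi-likelihood test, 0 genes (0%) were higher and 0 genes (0%) were lower in Eµ-PRMT5/TCL1 mice, with 0.9997 as the lowest adjusted value. Before adjustment, 124 genes (0.98%) had p under 0.05 and a higher level, and 144 (1.14%) a lower one. The 3 double transgenic mice lay above all 4 Eµ-PRMT5 mice for 172 genes (1.36%) and below them for 187 (1.48%). Groups of 3 and 4 mice can lie apart with no effect of genotype, so a lack of overlap alone does not show a difference. With DESeq2, 3 genes (0.0237%) were higher and 1 gene (0.0079%) lower at an adjusted p under 0.05. Single mice moved the counts before adjustment. When Eµ-PRMT5 mouse 3 was left out 408 genes were higher and 325 lower, and when mouse 4 was left out 377 and 370, still with 0 genes past the adjusted threshold. Leaving out Eµ-PRMT5/TCL1 mouse 1 gave 68 and 130, and leaving out mouse 2 gave 84 and 64. The data were not precise enough to call most genes unchanged. The 95% interval of the fold change stayed inside 2-fold either way for 2610 genes (20.6%), and the median standard error was 0.46.

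Slc9a3r2, Rgl1 and Ehd2 separated the groups most clearly. Slc9a3r2 (chromosome 17, 24639286 to 24650327), which encodes a PDZ scaffold that tethers membrane transporters, measured 5.16, 2.30, 3.98 and 6.38 CPM in Eµ-PRMT5 mice and 30.6, 27.8 and 32.6 CPM in Eµ-PRMT5/TCL1 mice. Its highest Eµ-PRMT5 value was well under its lowest double transgenic value, and its log2 fold change was 2.76 (standard error 0.47, 95% interval 1.73 to 3.78). Rgl1 (chromosome 1, 152516760 to 152766351), an exchange factor for Ral GTPases, measured 10.7, 7.36, 16.1 and 14 CPM against 45.7, 37.5 and 88.6 CPM. Ehd2 (chromosome 7, 15946958 to 15967567), an ATPase of caveolae, measured 7.93, 16.4, 9.28 and 9.11 CPM against 34.4, 76.9 and 37.9 CPM. For both genes the groups were apart in every mouse, with log2 fold changes of 2.25 (standard error 0.43) and 2.22 (standard error 0.44). These 3 are the genes that DESeq2 called higher, at adjusted p values of 8.72e-05 for Slc9a3r2 and 0.0124 for Rgl1 and Ehd2. In edgeR's test each had an adjusted p of 0.9997, and over the 20 alternatives the adjusted p of each reached 1.00, with log2 fold changes between 2.54 and 3.22 for Slc9a3r2, 1.78 and 2.48 for Rgl1 and 1.76 and 2.50 for Ehd2.

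The gene that DESeq2 called lower was Tcf7 (chromosome 11, 52252371 to 52283014), which encodes TCF1, a transcription factor of the Wnt pathway and of T-cell development. It measured 32.7, 35.5, 39.6 and 10.4 CPM in Eµ-PRMT5 mice and 5.15, 3.93 and 8.22 CPM in Eµ-PRMT5/TCL1 mice, with mouse 4 of the first group closest to the second. Its log2 fold change was -2.35 (standard error 0.56, 95% interval -3.57 to -1.13), with an adjusted p of 0.0332 in DESeq2 and between 0.0332 and 1.00 over the alternatives. Several T-cell genes also had lower values in the Eµ-PRMT5/TCL1 mice, as described further on, and the part of T cells in the level of Tcf7 was not tested.

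Among the other genes with higher values and no overlap, Gas7, an actin-binding protein of membrane curvature, measured 6.74 to 30.5 CPM in Eµ-PRMT5 and 49.3 to 95.5 CPM in Eµ-PRMT5/TCL1 mice. It shares exon sequence with Glp2r on the opposite strand, and whether counting was by strand is not given in the sources used here. Matk, a kinase that inhibits Src-family kinases, measured 20.1 to 38.7 CPM against 56.9 to 116 CPM (log2 fold change 1.55, standard error 0.37). Wls, which carries Wnt proteins to the cell surface, measured 13.9 to 30.6 CPM against 58.1 to 84.5 CPM (1.51, standard error 0.37). Csf1, the growth factor of macrophages, measured 9.12 to 22.7 CPM against 31.7 to 68.1 CPM, and the adhesion molecule F11r 21.0 to 89.5 CPM against 133 to 195 CPM. Prss34, a serine protease of basophils, was 2.76 to 14.5 CPM against 19.3 to 89.3 CPM. The remaining genes of this kind were Cmtm3, Tmem198b and Gng13, with log2 fold changes of 1.64, 1.83 and 2.73, of which Gng13 reached only 6.09 CPM and had 0 counts in Eµ-PRMT5 mouse 2. Tmem198b and Gng13 also overlap exons of genes on the other strand.

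Below the Eµ-PRMT5 mice lay a mixed set of genes. Hlcs, the ligase that attaches biotin to carboxylases, measured 50.6, 33.9, 31.2 and 46.3 CPM against 18, 12.5 and 14 CPM (log2 fold change -1.45, standard error 0.38). Sdc1, the plasma cell antigen CD138, measured 198, 110, 58.1 and 36.5 CPM against 9.65, 9.26 and 35.2 CPM, so that the lowest value of the first group nearly met the highest of the second. Rhoh, a protein of blood cells, measured 205 ± 88.6 CPM (SD, n = 4) against 75.6 ± 17.3 CPM (SD, n = 3), without overlap. Cirbp, an RNA-binding protein induced by cold, measured 108 to 216 CPM against 69.3 to 97.1 CPM, and Ddb2, a sensor of ultraviolet DNA damage, 18.7 to 29.2 CPM against 4.50 to 12.6 CPM. Both Nek8 and Ift88, genes of the primary cilium, were on this side, with log2 fold changes of -1.27 (standard error 0.44) and -1.48 (standard error 0.51). Zmym2, Mreg, Acsbg1 and Tigd2 had log2 fold changes of -1.31, -2.44, -1.64 and -1.22. Ddb2 and Ift88 share exon sequence with genes on the other strand. The plot of single mice shows all 24 of these genes.

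**Figure D1:**
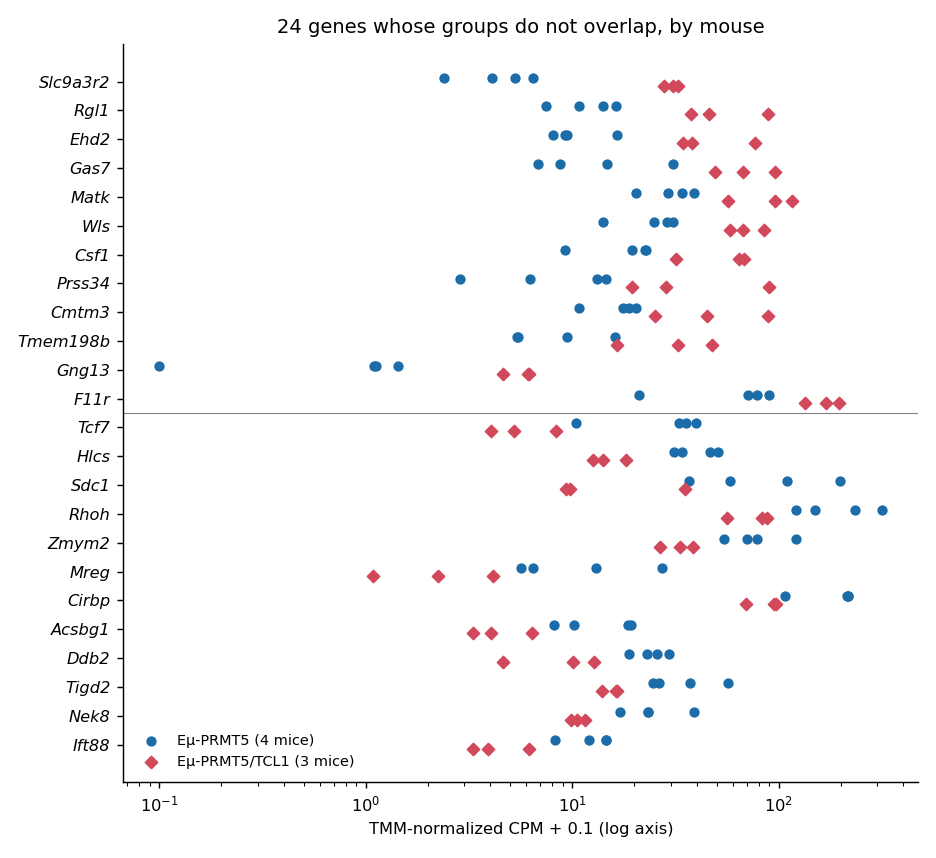
CPM plus 0.1 on a log axis for the 12 genes higher (above the line) and the 12 lower (below it) in Eµ-PRMT5/TCL1 mice with the smallest unadjusted p among genes whose groups do not overlap; each circle is 1 of 4 Eµ-PRMT5 mice and each diamond 1 of 3 Eµ-PRMT5/TCL1 mice. Slc9a3r2 has the widest gap, between 6.38 and 27.8 CPM, while Sdc1 and Tmem198b nearly touch.

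The single Eµ-TCL1 mouse gave a value for some of these genes on CPM scaled over all 8 libraries, with no test. It had 44.2 CPM of Slc9a3r2, 62.6 CPM of Rgl1, 34.5 CPM of Ehd2, 56.1 CPM of Gas7, 128 CPM of Matk and 248 CPM of F11r. These 6 values, of the 11 higher genes with a value in that mouse, lay above all 4 Eµ-PRMT5 mice. Of the 11, 6 lay below the 3 double transgenic mice. These were Wls at 13 CPM, Cmtm3 at 17.5 CPM, Csf1 at 20.5 CPM, Tmem198b at 10.8 CPM, Gng13 at 0.54 CPM and, by a small margin, Ehd2. For Tcf7 it had 28.1 CPM, and for Hlcs 45.6 CPM, both within the Eµ-PRMT5 range. In all, 9 of the 12 lower genes, Tcf7 and Hlcs among them, were above the 3 Eµ-PRMT5/TCL1 mice in the Eµ-TCL1 mouse.

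The pathway lists, 35 with the cell type markers, held 624 distinct genes that were tested. None passed the adjusted threshold, and before adjustment 8 with a higher level (1.28%, against 0.98% of all genes) and 19 with a lower one (3.04%, against 1.14%) had p under 0.05. Without overlap, 10 lay above (1.6%, against 1.36%) and 5 below (0.801%, against 1.48%). Medians below are to be read against the median over all genes of -0.08 and the 41.7% of genes with a positive fold change.

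In the PI3K, AKT and mTOR list, which holds the route on which TCL1 acts, 14 of 31 tested genes had a positive and 17 a negative fold change (median -0.06). Phlpp1, a phosphatase that dephosphorylates AKT, measured 52.2, 49.0, 30.3 and 29.5 CPM in Eµ-PRMT5 and 23.8, 18.4 and 14.9 CPM in Eµ-PRMT5/TCL1 mice, without overlap (log2 fold change -1.08, standard error 0.39, unadjusted p = 0.018, adjusted p = 0.9997 in edgeR's test). The kinase gene Akt2 also did not overlap, at 130 to 151 CPM against 166 to 177 CPM, a small difference with a log2 fold change of 0.30 (standard error 0.28). Of FOXO factors and targets, 14 of 18 had a negative fold change (77.8%), with a median of -0.49. It was -0.19 when Eµ-PRMT5 mouse 1 and -0.30 when mouse 2 was left out. The interleukin-7 receptor gene Il7r measured 29.9, 25.9, 34.7 and 1.59 CPM against 7.24, 4.21 and 2.28 CPM, and Eµ-PRMT5 mouse 4 was the lowest of all. For Trib2 and Sesn1 the log2 fold change was -0.95 each (standard errors of 0.42), with overlap in both. Foxo1 itself, which was chosen after its values were seen, measured 252, 101, 35.4 and 25.1 CPM against 53.9, 22.3 and 54.4 CPM, with the highest values in Eµ-PRMT5 mice 1 and 2. The mean log2 CPM of the FOXO list was 6.64, 6.17, 5.78 and 5.05 against 5.79, 5.54 and 5.20, and the groups overlapped.

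Of the genes of B-cell receptor signalling, 19 of 26 had a positive fold change, with a median of 0.32 that was 0.034 without Eµ-PRMT5/TCL1 mouse 3, 0.18 without mouse 2 of that group and 0.15 without Eµ-PRMT5 mouse 4. In this list 0 lay outside the other group in all mice. For the CLL-like and B1 markers the median was -0.04. Cd5, the surface protein that marks CLL cells, measured 27.8 to 54.8 CPM against 22.8 to 56.6 CPM. Zap70, a kinase used as a marker in human CLL, measured 5.36, 7.97, 19.9 and 34.0 CPM against 2.41, 5.89 and 1.68 CPM (log2 fold change -2.33, standard error 0.75, unadjusted p = 0.00902, adjusted p = 0.9997 in edgeR's test). Fcer2a, the low-affinity IgE receptor CD23 of follicular B cells, measured 12.3, 18.7, 37.4 and 1.71 CPM against 2.09, 0.842 and 4.87 CPM. In both genes 1 Eµ-PRMT5 mouse reached into the range of the double transgenic mice.

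Genes of antigen presentation and interferon response had mostly positive fold changes. In the MHC class II list this held for 10 of 13 genes, with a median of 0.55 that was 0.32 with Eµ-PRMT5 mouse 4 left out. The mean log2 CPM of the list was 8.83, 8.94, 9.10 and 8.26 in Eµ-PRMT5 and 9.26, 9.40 and 9.43 in Eµ-PRMT5/TCL1 mice, without overlap. Its summed CPM did overlap, at 14950 to 31050 CPM against 26940 to 34280 CPM. H2-DMa, a subunit of the chaperone that loads peptides, measured 308, 276, 542 and 265 CPM against 599, 605 and 702 CPM (log2 fold change 0.87, standard error 0.37, unadjusted p = 0.0349, adjusted p = 0.9997 in edgeR's test). Its exons overlap Brd2 on the other strand. Cd74, the invariant chain, was 8906 to 17370 CPM against 13730 to 19960 CPM, with overlap. In the type I interferon list, 17 of 23 genes had a positive fold change (median 0.35). The median was 0.19 with mouse 1 of either group left out, 0.17 with Eµ-PRMT5 mouse 2 left out and 0.57 with mouse 4 left out. There, 3 of the 23 (13%) lay above all Eµ-PRMT5 mice, compared with 1.36% of all genes, with Ifi27l2a and Irf9 among them. Ifi27l2a measured 8.53, 14.7, 48.4 and 57.2 CPM against 76.7, 63.3 and 153 CPM. By mean log2 CPM the interferon list overlapped, at 3.74, 3.72, 4.77 and 5.34 against 5.10, 4.89 and 4.88.

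Cell cycle genes did not differ in one direction. Medians were -0.01 over 30 genes of DNA replication and -0.06 over 28 mitosis genes, and both rested on Eµ-PRMT5 mouse 4. Without that mouse they were 1.07 and 1.34. The mean log2 CPM of the mitosis list was 4.51, 3.67, 5.29 and 7.68 in Eµ-PRMT5 mice, and 6.28, 5.44 and 6.30 in Eµ-PRMT5/TCL1 mice, which stood between mouse 4 and the others. E2f1, a transcription factor of S-phase entry, measured 6.94, 3.37, 9.95 and 12.6 CPM against 21.7, 15.0 and 18 CPM, with mouse 4 below the double transgenic mice. Its log2 fold change was 1.14 (standard error 0.51). Ccnd2, cyclin D2 of the G1 phase, measured 262, 420, 381 and 261 CPM against 549, 497 and 820 CPM, again without overlap (0.91, standard error 0.36). Genes on the other strand overlap exons of Ccnd2.

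The arginine methyltransferases and PRMT5 partners had a negative fold change in 12 of 13 genes with a median of -0.19, and 0 lay outside the other group. Clns1a, the PRMT5 partner that recruits Sm proteins, measured 106 to 270 CPM against 161 to 187 CPM. Of Sm and SR proteins of the spliceosome, 22 of 26 had a negative fold change (median -0.20). For Srsf2, a splicing factor (log2 fold change -1.38, standard error 0.63), a single mouse carried the difference, with 274 CPM in Eµ-PRMT5 mouse 1 and 40.2 to 59.9 CPM in the other 3 against 31.9 to 47.8 CPM. Genes of oxidative phosphorylation gave a negative fold change in 26 of 30 (median -0.11), the BCL2 family in 12 of 14 (-0.34) and MYC with its targets in 19 of 24 (-0.19). These medians depended on single mice, and with Eµ-PRMT5 mouse 4 left out they were 0.06 for the Sm and SR proteins and 0.24 for oxidative phosphorylation. That of the MYC list was then -0.00084, and it was -0.34 with mouse 1 and -0.38 with mouse 3 left out. That of the BCL2 family was -0.09 with mouse 1 left out, and that of the methyltransferase list -0.40 with Eµ-PRMT5/TCL1 mouse 3 left out. Medians of the other pathway lists were near that of all genes. They were 0.01 for 53 cytosolic ribosomal proteins, 0.05 for NF-kB subunits and targets, 0.02 for AP-1 and immediate early genes, -0.01 for DNA methylation and Polycomb, -0.01 for DNA damage and p53, 0.01 for G1 regulators, -0.12 for TCF/LEF and Wnt, -0.06 for ER folding and secretion and -0.18 for glycolysis. With Eµ-PRMT5 mouse 4 left out, those of the ribosomal proteins and of glycolysis were 0.39 and 0.49. Of the AP-1 list, Fosl1 measured 17.5, 57.2, 3.09 and 0.683 CPM against 2.57, 3.09 and 0.913 CPM, with the highest values again in Eµ-PRMT5 mice 1 and 2. Bmi1, a Polycomb subunit, was 14.6 to 62.8 CPM against 15.8 to 25.1 CPM.

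The list of genes that the study names for Eµ-PRMT5/TCL1 B cells had a positive fold change in 18 of 25 (median 0.22), 0 without overlap. The median ran from 0.024 without Eµ-PRMT5 mouse 2 to 0.47 without mouse 4. Mki67, a marker of cycling cells in it, measured 72.6, 27, 95.2 and 796 CPM against 202, 122 and 400 CPM. The list mixes directions. From single-cell data, the study describes Cd93 as absent from Eµ-PRMT5/TCL1 spleen, as it does for Eµ-PRMT5 B cells. It describes S100a6, S100a10 and S100a11 as reduced in an Eµ-PRMT5/TCL1 cluster. Here, in bulk RNA, the log2 fold changes of Cd93, S100a6, S100a10 and S100a11 were 0.55, 0.26, 0.50 and 0.71. Cd93 measured 14.3, 12.7, 7.07 and 49.5 CPM against 67.2, 20.2 and 5.02 CPM, with overlap. The study did not name the list from a contrast with Eµ-PRMT5 mice, so the positive share does not measure agreement with it.

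**Figure D2:**
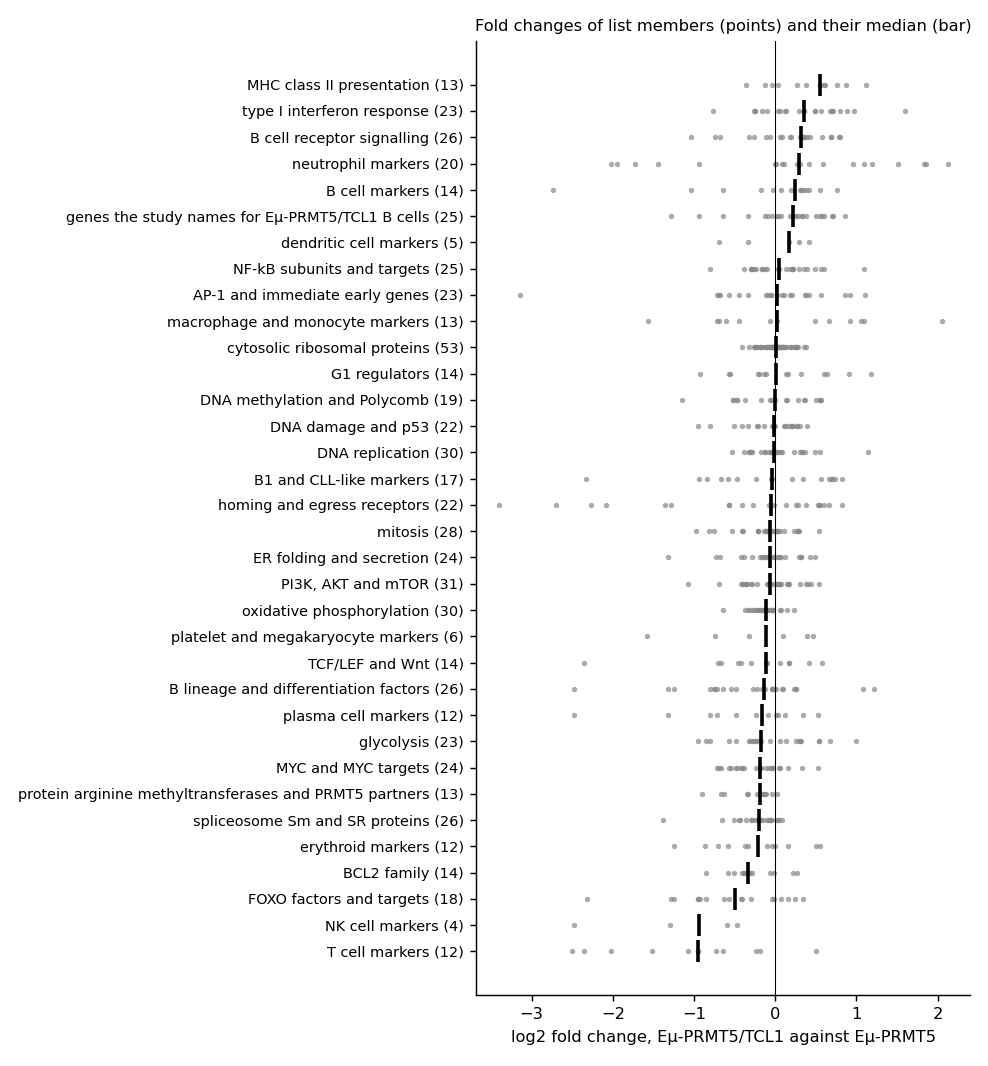
log2 fold change of Eµ-PRMT5/TCL1 over Eµ-PRMT5 for each tested member (points) of the lists with at least 4 tested genes (number in brackets), with the median of each list as a bar. Medians ran from -0.95 for T-cell markers to 0.55 for MHC class II, and most pathway lists sat within a narrow band around 0.

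Homing receptors were a spread-out group. Of 22 genes, 6 were over 2-fold lower and 0 over 2-fold higher in Eµ-PRMT5/TCL1 mice, where 2.93% of all genes were over 2-fold lower and 2.04% higher. The median was -0.05. The chemokine receptor gene Ccr6 measured 26, 56.5, 15.0 and 1.48 CPM against 6.27, 1.82 and 3.35 CPM, and Cxcr4, which retains cells in the bone marrow, 236, 96.7, 7.29 and 36.7 CPM against 32.5, 17.8 and 8.22 CPM. Rgs13, a regulator of chemokine signalling in germinal centre cells, measured 3.97, 1.07, 7.96 and 47.5 CPM against 1.61, 0.842 and 1.83 CPM. All 3 overlapped, with log2 fold changes of -2.70, -2.27 and -3.40 and unadjusted p values of 0.0142, 0.0265 and 0.0102 in edgeR's test. The integrin gene Itgb7 lay above without overlap, at 209 to 796 CPM against 824 to 953 CPM (0.82, standard error 0.44). Itgal, the alpha chain of the integrin LFA-1, which was named after its values were seen, did so too, at 243 to 410 CPM against 420 to 542 CPM. These 2 of 22 genes (9.09%) compare with 1.36% of all genes.

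Among B lineage and differentiation factors, 8 of 26 had a positive and 18 a negative fold change. The related factors Spi1 (PU.1) and Spib had log2 fold changes of 1.22 (standard error 0.42) and 1.08 (standard error 0.44). Spi1 measured 128, 118, 116 and 216 CPM against 512, 331 and 167 CPM, and since PU.1 is also a myeloid factor, the neutrophil markers of the same mice are given beside it. Summed over 20 genes these were 3954, 3445, 1483 and 11350 CPM in Eµ-PRMT5 mice and 16310, 7802 and 1471 CPM in Eµ-PRMT5/TCL1 mice, in the same order as Spi1 within the double transgenic group. Spib measured 229, 424, 557 and 454 CPM against 507, 1361 and 779 CPM, and was highest in another mouse. The part of myeloid cells in Spi1 was not tested.

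Cells of other types were present in both groups, and in bulk RNA a lower number of such cells cannot be told apart from less RNA in each. Of 19 T-cell markers 12 were tested, 11 with a negative fold change, and their median was -0.95, which was -0.05 without Eµ-PRMT5 mouse 3. Cd3d measured 12.9, 6.59, 43.3 and 2.62 CPM against 4.02, 2.39 and 2.13 CPM, and Cd3e 16.7, 13.8, 53.5 and 6.49 CPM against 7.24, 6.32 and 9.90 CPM. The 12 markers summed to 386 to 986 CPM in Eµ-PRMT5 and 338 to 817 CPM in Eµ-PRMT5/TCL1 mice. Lck made up 38.1% to 80.1% of these sums, the most in Eµ-PRMT5/TCL1 mouse 2. That mouse had 654 CPM of Lck, 2.39 CPM of Cd3d and 6.32 CPM of Cd3e. Cd5, which also marks CLL cells, was among the 12, so the sums do not measure T cells alone. Cd4 and Cd8a lacked a value in 1 mouse each and were not tested. NK-cell markers, with 4 of 11 tested, summed to 44.4 to 353 CPM against 20.9 to 83.2 CPM, and Prf1, the perforin of killer cells, measured 62.1 CPM in Eµ-PRMT5 mouse 3 and 2.95 to 4.72 CPM in the double transgenic mice. Macrophage and monocyte markers (13 of 20 tested) summed to 1350 to 3702 CPM against 1050 to 7526 CPM, with C1qa, C1qb and C1qc lacking a value in some mice. Within them Cd14 was 11.7 to 68.4 CPM against 392, 166 and 8.98 CPM. Of the neutrophil genes, Mpo measured 353, 50.1, 156 and 985 CPM against 3432, 1449 and 179 CPM while Mmp8 measured 55.9, 47.8, 5.30 and 123 CPM against 30.4, 5.75 and 6.70 CPM, with log2 fold changes of 2.13 and -2.02. Over the 20 neutrophil markers 14 were positive and 6 negative. Erythroid markers (12 of 18 tested) summed to 181 to 872 CPM against 205 to 501 CPM, dendritic cell markers (5 of 10) to 78.6 to 121 CPM against 72.4 to 118 CPM, and platelet markers (6 of 10) to 52.6 to 195 CPM against 83.0 to 114 CPM. The platelet gene Gp9 was below without overlap at 1.84 to 2.87 CPM against 0.702 to 0.804 CPM. Of 12 stromal and endothelial markers only 1 was tested, Pecam1. Plasma cell markers, all 12 tested, summed to 2234 to 6643 CPM against 1472 to 5201 CPM. The 4 Y-linked genes examined had counts only in mouse 3 of each group, so by these genes the sexes were mixed within both groups. The part of sex in the differences between mice was not tested.

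**Figure D3:**
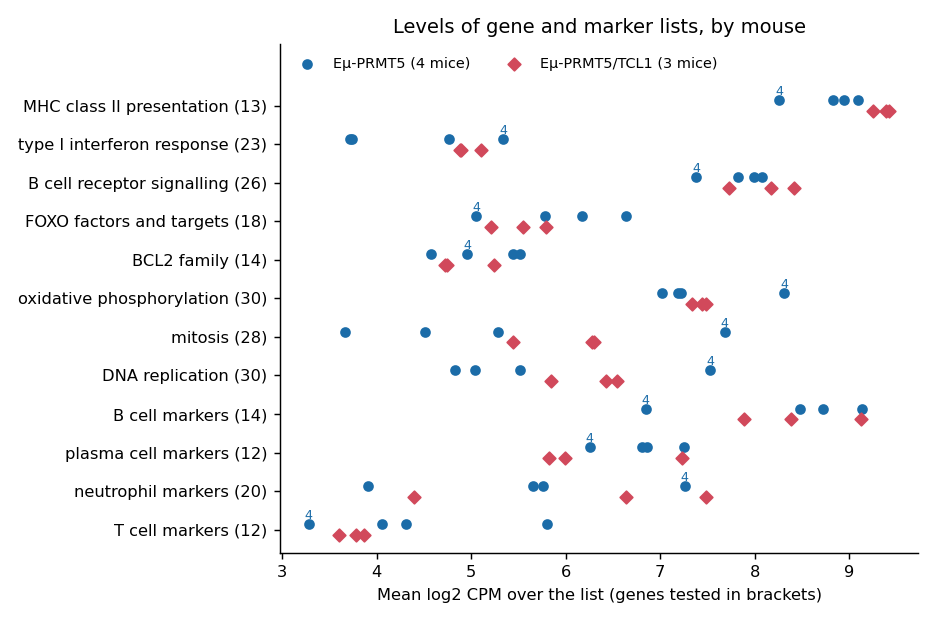
Mean log2 CPM of 12 lists in each mouse, circles for 4 Eµ-PRMT5 mice (mouse 4 marked with its number) and diamonds for 3 Eµ-PRMT5/TCL1 mice, with the number of genes tested in brackets. MHC class II is the list shown without overlap, from 8.26 to 9.10 against 9.26 to 9.43; mouse 4 is the highest of all for mitosis, at 7.68.

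The spread between mice was wider in Eµ-PRMT5 than in Eµ-PRMT5/TCL1 mice. It was described over the 4463 genes with a mean of at least 50 CPM in both groups, as the mean absolute difference of log2 CPM between pairs of mice, which does not grow with the number of mice. Its median was 0.66 in Eµ-PRMT5 and 0.36 in Eµ-PRMT5/TCL1 mice, and 78.6% of genes had the wider spread in Eµ-PRMT5. Over the same 4463 genes, the median absolute difference of a pair of Eµ-PRMT5 mice was 0.46 to 0.74. That of a pair of double transgenic mice was 0.30 to 0.36. A mouse of one group and a mouse of the other differed by 0.33 to 0.58, so some mixed pairs were closer than any pair of Eµ-PRMT5 mice. Leaving out any 1 mouse kept the median at 0.57 or more in Eµ-PRMT5 and at 0.36 or less in Eµ-PRMT5/TCL1. With 3 and 4 mice per group, no test of this difference was made.

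**Figure D4:**
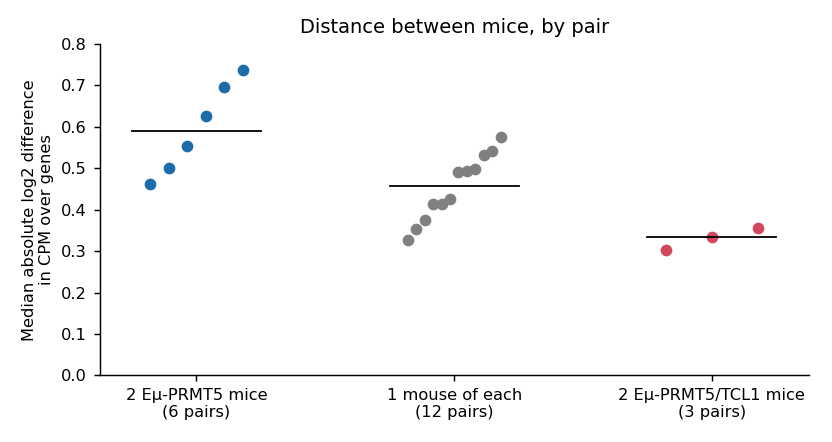
Median absolute log2 difference in CPM for each pair of mice (points), with the median of the pairs as a line: 6 pairs of Eµ-PRMT5 mice, 12 pairs with 1 mouse of each group and 3 pairs of Eµ-PRMT5/TCL1 mice. Differences are taken over the 4463 genes with a mean of at least 50 CPM in both groups. The 3 double transgenic pairs are at 0.30 to 0.36, under all 6 Eµ-PRMT5 pairs.

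Constant genes were found in both groups. The range from the lowest to the highest mouse was under 0.5 on the log2 scale for 299 of 4463 genes in Eµ-PRMT5, for 2026 in Eµ-PRMT5/TCL1 and for 151 in both. The ranges are not comparable between groups of 4 and 3 mice, since a range grows with the number of mice. Rps12, a ribosomal protein whose reads may be shared with processed copies, was the most even, at 81.7, 77.7, 77.6 and 81.1 CPM in Eµ-PRMT5 and 77.8, 78.0 and 80.4 CPM in Eµ-PRMT5/TCL1 mice. Msn, which links actin to the membrane, had 1202 to 1306 CPM against 1403 to 1554 CPM, so it was constant within both groups and yet did not overlap (log2 fold change 0.25, standard error 0.35). Akap8, Trmt1 and Tm9sf4 were also among the 10 most constant, all between 86.7 and 217 CPM, as was Akt2.

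Some genes varied widely in Eµ-PRMT5 mice and less in Eµ-PRMT5/TCL1 mice. Cell cycle genes were high in mouse 4, as in Kif11, a mitotic motor, with 12.3, 3.98, 31.4 and 287 CPM against 57.7, 36.2 and 80.2 CPM. Cdk1, the mitotic kinase, measured 22.4, 4.90, 23.2 and 303 CPM against 79.1, 43.2 and 78.1 CPM, and Rrm2, a subunit of ribonucleotide reductase, 49.2, 26.4, 92.8 and 990 CPM against 295, 158 and 244 CPM. In each, mouse 4 lay above and the other Eµ-PRMT5 mice below the double transgenic mice. Ccna2 had the same order, and Cdca3 was also highest in mouse 4. The metabolic genes Ldha and Atp5b were highest in that mouse too. Ldha measured 328, 1265, 770 and 3429 CPM against 940, 889 and 1101 CPM, and Atp5b 604, 987, 764 and 2557 CPM against 1233, 1159 and 1187 CPM. The B-cell factor Ebf1 went the other way, with 1311, 300, 264 and 18.2 CPM against 176, 444 and 286 CPM, and the lipid carrier Apoe measured 6493, 6967, 2036 and 300 CPM against 2047, 1978 and 2318 CPM. Eµ-PRMT5 mouse 4 thus had the lowest Ebf1 and Apoe of all 7 mice. The cytokine receptor gene Il9r had 112, 101, 13.7 and 1.82 CPM against 43.1, 56.7 and 69.4 CPM.

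A different mouse stood apart for Gnb3, a G-protein subunit. It measured 26.6, 6.28, 592 and 32.3 CPM in Eµ-PRMT5 mice and 386, 424 and 887 CPM in Eµ-PRMT5/TCL1 mice, so that mouse 3 alone was at the level of the double transgenic mice. The Eµ-TCL1 mouse had 732 CPM. Cyp11a1, the enzyme that opens steroid synthesis, had 164, 4.75, 156 and 20.4 CPM against 166, 308 and 220 CPM. In all, 8 genes had a pairwise spread over 2 in Eµ-PRMT5 and under 0.5 in Eµ-PRMT5/TCL1, and 0 genes the reverse.

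Other genes varied among the Eµ-PRMT5/TCL1 mice. Jchain, the joining chain of secreted IgM and IgA, was as variable in both groups, at 2988, 913, 965 and 28.8 CPM and at 90.5, 61.3 and 2077 CPM. Krt8, a keratin, measured 48.4, 1.99, 183 and 1.14 CPM against 352, 15.0 and 248 CPM. Lgals3, a galectin of macrophages, measured 1484, 398 and 49.5 CPM in Eµ-PRMT5/TCL1 mice 1 to 3, in the order of the summed neutrophil markers. Among those markers, the elastase gene Elane measured 883, 405 and 57.2 CPM and Lyz2 6106, 2054 and 701.4 CPM. The part of myeloid cells in these genes was not tested. Asns and Trib3, which are induced by amino acid shortage, were also in the order of Lgals3, with 236, 29.3 and 9.29 CPM and 114, 64.2 and 5.02 CPM. Id2, an inhibitor of helix-loop-helix factors, had 68.8, 132 and 7.61 CPM, and the homing receptor Ccr7 183, 336 and 18.7 CPM, both lowest in mouse 3. The scaffold gene Dlg1 was high in mouse 2 only, at 186 CPM against 35.1 and 33.8 CPM.

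**Figure D5:**
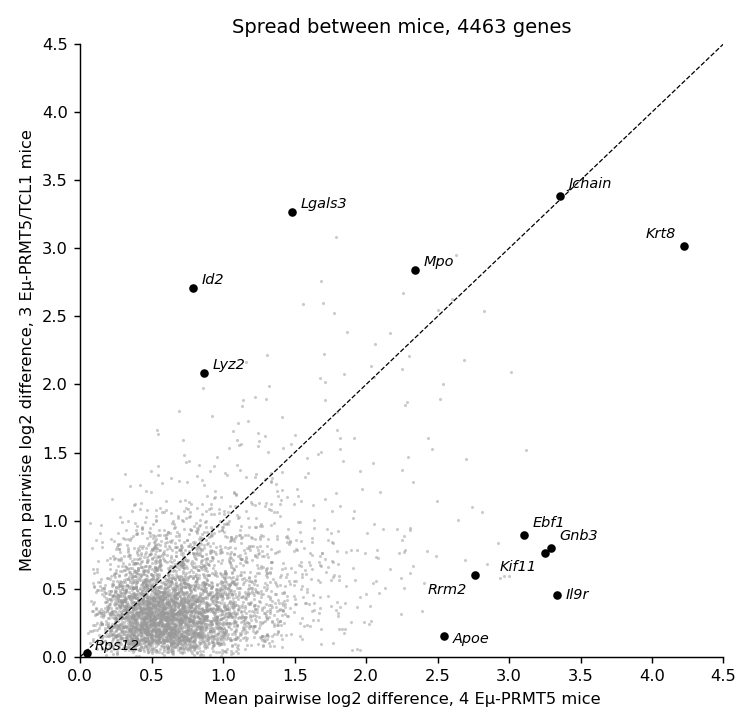
Mean absolute pairwise difference of log2 CPM among 4 Eµ-PRMT5 mice (horizontal) and among 3 Eµ-PRMT5/TCL1 mice (vertical) for each of 4463 genes, with the dashed line marking equal spread. The cloud lies mostly under the line, with 78.6% of genes wider in Eµ-PRMT5; Kif11, Gnb3, Il9r and Apoe are far to the right, and Lgals3, Id2 and Lyz2 above the line.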

How the data were processed

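The values deposited by the authors are raw counts, 1 row per gene symbol and 1 column per mouse, from splenic B cells of 8 mice, of which 7 were compared. The submitters' processing notes name featureCounts, Subread, DESeq2 1.20.0 and GRCm38, with no order. The study's methods describe low-input cDNA preamplification and the labels a stranded mRNA kit. The aligner, annotation, use of strand and meaning of NA are not given in the sources used here. Preamplified reads without molecular identifiers are not independent molecules, so counting error understates the error of low genes. In 26 rows a date stands for a symbol.

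Rows with a value in all 7 mice were kept (14182) and filtered by group with edgeR 4.0.16 in R 4.3.3. The 12658 genes left were scaled with TMM factors, tested by quasi-likelihood and adjusted by Benjamini-Hochberg (biological coefficient of variation 0.481). Groups follow the genotypes of the labels. Spread and list means used log2 CPM with a prior count of 2. Lists were described by counts and medians, without a set test. Named genes were the 12 with the smallest unadjusted p per direction without overlap and at least 5 CPM in 1 group, list members at an unadjusted p under 0.05 or of highest level, the 10 most constant and most variable genes, genes called by DESeq2, and genes the study names, of which a part is described. One list member is not reported here. Members, lists and rules were chosen with earlier results of these data known. Positions are from GENCODE vM21, where Ccna2, Cd3e, Clns1a, Fosl1, Krt8, Mpo, Msn and Srsf2 also share exon sequence with genes on the other strand. The code was tested on simulated data. Alternatives were DESeq2 1.42.0, limma 3.58.1 with sample weights, other scaling and filters, NA as 0, all 8 mice, a replicate block and mice left out.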

Additional observations from a re-analysis of the deposited data

Results flagged for a closer look

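Among 102 levels examined in the 4 Eµ-PRMT5 mice (named genes and summed marker lists), 22 had 1 mouse farther from the others than the 95% critical value of Dixon's test allows, where chance flags about 1 in 20. Some of the genes were chosen for a wide spread among these same mice and several belong to the cell cycle, so the number is not to be read against that share. Groups of 3 were not examined. Mouse 4 was the highest for Kif11 (287 CPM), Ccna2 (243 CPM), Cdk1 (303 CPM), Cdca3 (261 CPM), Rrm2 (990 CPM) and Mki67 (796 CPM), all genes of the cell cycle. It was also the highest for Rgs13 (47.5 CPM), Spi1 (216 CPM), Lyz2 (2829 CPM), and for the sums of erythroid (872 CPM) and of macrophage and monocyte markers (3702 CPM).

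Mouse 3 was the highest for Gnb3 (592 CPM), H2-DMa (542 CPM), Lck (376 CPM), Nkg7 (270 CPM) and the sums of T-cell (986 CPM) and NK-cell markers (353 CPM), and the lowest for Cirbp (108 CPM). Mouse 2 was the highest for Ccr7 (1211 CPM), Trmt1 (134 CPM) and Ehd2 (16.4 CPM), and mouse 1 for Srsf2 (274 CPM).

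Outside the rows tested, 65 of 24902 symbols had a value in all 3 Eµ-PRMT5/TCL1 mice and none in the 4 Eµ-PRMT5 mice, and 20 showed the reverse. With at least 10 counts in each mouse these were 10 and 2. Eµ-PRMT5 mouse 1 lacked a value for 8523 symbols, and the other mice compared lacked 3722 to 4491 each. Only the reverse requires a value in that mouse, so the numbers in the 2 directions are not comparable. Eya4, a phosphatase and transcriptional coactivator, had 39, 32 and 45 counts in the double transgenic mice and 40 in the Eµ-TCL1 mouse. The lowest counts of the others were 59 for 4930488L21Rik, 28 for Cc2d2a, 27 for Dpysl5, 17 for Pi15, 16 for Psg29, 14 for Ccdc149, 13 for 1700061I17Rik and C130026L21Rik and 10 for Dpt. Of these 10 symbols, 8 also had a value in the Eµ-TCL1 mouse. What NA stands for was not settled, so no fold is given.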

How the results depend on the processing

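Genes higher at an adjusted p under 0.05 numbered 0 under all alternatives but DESeq2 (3), and genes lower 0 but for DESeq2 (1). At an unadjusted p under 0.05, 124 higher and 144 lower genes became 132 and 244 with DESeq2, 658 and 461 with limma's sample weights, 496 and 328 with the replicate block and 377 and 370 in the same 6 mice without it, and 206 and 256 without the mouse of each group with the most neutrophil marker counts (chosen after seeing the data). With each mouse left out in turn, the counts were 68 to 408 higher and 64 to 370 lower, lowest without Eµ-PRMT5/TCL1 mice 1 and 2 and highest without Eµ-PRMT5 mice 3 and 4. Same-numbered mice deviated from their group means with correlations of 0.0337, 0.348 and 0.426, so the numbers were not taken to pair the mice, and the block changed no call. Mice 2 and 3 correlated best with their own numbers and mouse 1 did not, so a link between same-numbered mice was not settled. Mouse 3 of each group was also the mouse with counts of Y-linked genes.

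The spread stayed within 1.5 times of its value under all alternatives tried. Of 92 named genes, 5 changed sign in at least 1 of 20 fits: Nkg7 with sample weights (0.57), and the block (0.16), and, over fits with 1 mouse left out, Nkg7 (-1.86 to 0.75), Ccr7 (-2.11 to 0.024), Lck (-0.34 to 0.83), Lyz2 (-0.018 to 1.68) and Ms4a1 (-0.032 to 1.29). Of 385 list medians under alternatives, 9 moved by more than the spread between mice. Totals of 3987989 to 10252426 counts limit low genes most, and the number of mice limits the rest.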
